A study of Mus musculus with 11 samples.

Results

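Chemokines, the small secreted proteins that direct cell migration, and their receptors were followed through early lymphoid development in the mouse. All genes with a probe set of a single symbol that begins with Ccl, Cxcl, Xcl, Cx3cl, Ccr, Cxcr, Xcr, Cx3cr or Ackr and goes on with a number were taken, with the probe set of the highest mean where a gene had several. This gave 55 of the 19938 genes measured, 34 of them ligands and 21 receptors. Chemokine genes under other kinds of name, such as Pf4 and Ppbp, fall outside that spelling and were read only as context. The study sorted 6 populations from C57BL/6J mice and measured total RNA on 11 Affymetrix whole-transcript arrays, 1 per sample. From bone marrow came hematopoietic stem cells, written HSC, the lymphoid-primed multipotent progenitors (LMPP) that follow them, and the more restricted common lymphoid progenitors (CLP). From thymus came early thymic progenitors (ETP) and the double negative stages DN2 and DN3. Each population had 2 arrays, except DN2 with 1. For the thymic samples, a description field says bone marrow while the tissue field and the design text say thymus; the tissue field was used. The sources used here give neither sort gates nor the age of the mice, nor whether replicates were separate animals or pools. The p-values may therefore measure only technical spread, and a gene used as a gate would differ through the sort itself.

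Values are log2 intensities, so 1 unit is a doubling of signal, and levels of different probe sets are not comparable with each other as transcript amounts. Array medians lay between 6.01 and 6.12. The population labels were checked against marker genes. Il2ra, the CD25 antigen that appears at DN2, read 4.07 to 4.49 on the marrow arrays, 6.96 and 7.68 in ETP, 11.40 in DN2, and 11.30 and 11.23 in DN3. A list of 6 measured T lineage markers averaged 5.84 to 6.27 on the marrow arrays, 7.03 and 7.01 in ETP, 8.45 in DN2, and 9.40 and 9.37 in DN3. HSC arrays had the highest mean of the 4 measured HSC markers, at 7.33 and 7.34, against 5.27 to 6.73 on the other arrays. Of these markers, only Slamf1 set HSC apart from LMPP, with 7.67 and 7.42 against 4.01 and 4.41. Hlf, Mecom and Procr overlapped between the HSC and LMPP arrays. Hlf had its highest mean in LMPP, 8.95 against 8.62 in HSC. Other cells' markers also differed between the sorts, and values of several stand beside results below. In bulk RNA, fewer cells of a type and less RNA per cell cannot be told apart.

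Chemokine receptors are G protein-coupled receptors that turn a gradient of ligand into directed movement. In the marrow, Cxcl12 from stromal cells acts on Cxcr4 to retain stem and progenitor cells. Entry into the thymus draws on Ccr9, the receptor for Ccl25 from thymic epithelium, and on Ccr7, the receptor for Ccl19 and Ccl21. The atypical receptors of the Ackr group bind chemokines without the usual G protein signal and mainly clear or transport them.

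The upstream sequence of 6 genes is given first, because they carry the 3 patterns described further on. Ccr9 is the receptor with the lowest adjusted p over the 6 populations. Ccl3, Ccl9 and Cxcl2 are ligands with their highest mean in LMPP, although Ccl9 and Cxcl2 overlapped there with HSC. Ccl17 and Ccl22 are ligands of the same small gene group, highest in ETP. Each line holds the 200 bases before the gene's annotated start in RefSeq (GRCm38.p6), 5′ to 3′ on the gene's own strand. The windows are chr9:123767011-123767210 (plus strand) for Ccr9, chr11:83649379-83649578 (minus strand) for Ccl3, chr11:83578637-83578836 (minus strand) for Ccl9, chr5:90903699-90903898 (plus strand) for Cxcl2, chr8:94810253-94810452 (plus strand) for Ccl17 and chr8:94745484-94745683 (plus strand) for Ccl22. Capitals mark matches to any of 5 motifs.
Ccr9: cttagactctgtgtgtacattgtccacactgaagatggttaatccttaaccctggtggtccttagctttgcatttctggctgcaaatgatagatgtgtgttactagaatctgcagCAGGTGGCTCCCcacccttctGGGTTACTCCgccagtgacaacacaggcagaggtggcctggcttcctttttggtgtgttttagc
Ccl3: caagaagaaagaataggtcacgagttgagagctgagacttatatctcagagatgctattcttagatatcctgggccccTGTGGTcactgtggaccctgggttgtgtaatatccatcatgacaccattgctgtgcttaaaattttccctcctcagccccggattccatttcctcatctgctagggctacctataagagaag
Ccl9: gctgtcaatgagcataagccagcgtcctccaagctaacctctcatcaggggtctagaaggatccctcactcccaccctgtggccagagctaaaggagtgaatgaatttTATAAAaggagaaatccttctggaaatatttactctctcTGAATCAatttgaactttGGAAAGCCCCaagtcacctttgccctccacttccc
Cxcl2: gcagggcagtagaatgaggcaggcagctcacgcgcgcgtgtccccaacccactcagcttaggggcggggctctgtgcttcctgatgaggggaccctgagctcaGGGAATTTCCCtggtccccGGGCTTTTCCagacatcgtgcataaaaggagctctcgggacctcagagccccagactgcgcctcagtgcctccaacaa
Ccl17: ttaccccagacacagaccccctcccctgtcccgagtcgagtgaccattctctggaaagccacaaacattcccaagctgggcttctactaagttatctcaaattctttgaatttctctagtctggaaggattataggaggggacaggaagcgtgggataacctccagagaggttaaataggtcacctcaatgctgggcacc
Ccl22: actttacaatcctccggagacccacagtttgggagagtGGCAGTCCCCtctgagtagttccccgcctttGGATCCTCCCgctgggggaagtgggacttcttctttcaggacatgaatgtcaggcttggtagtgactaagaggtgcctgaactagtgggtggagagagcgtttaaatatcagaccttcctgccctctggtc
The TATA box was searched as TATAAA on the sense strand alone. The other motifs were searched on both strands. The letters of an NF-kB site were taken as GGGNNNNNCC. For AP-1 the letters were TGANTCA. Runx factors are known to bind the letters TGTGGT, and the E box searched was written CAGGTG. The Ccr9 window held 1 E box and 2 NF-kB matches, of which 1 overlaps the E box. The Ccl3 window held 1 Runx match. That of Ccl9 held 1 AP-1 match, 1 NF-kB match and 1 TATAAA match, the last at 92 to 87 bases before the annotated start. Cxcl2 had 3 NF-kB matches, 2 of them overlapping. Ccl22 had 2 NF-kB matches, and the Ccl17 window held no match to the 5 motifs. Of all 32851 RefSeq promoters cut to the same 200 bases, 6.27% held the letters TATAAA at any position and 41.4% the NF-kB letters. The AP-1 letters were in 5.48%, the Runx letters in 11.2% and the E box in 13.9%. Counted per gene over 27025 genes, the shares were 7.43%, 44.4%, 6.36%, 12.8% and 15.8% in the same order. Promoters were at hand for 41 of the 55 members. Among those 41 genes, 12 had TATAAA, 23 the NF-kB letters, 4 the AP-1 letters, 9 the Runx letters and 5 the E box. A match describes letters in the window and is no evidence of binding.

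Most of the 55 genes gave weak signal that moved little between populations. The highest population mean stayed under 6.18, the median over all genes and arrays, for 23 of 34 ligands (67.6%) and 13 of 21 receptors (61.9%), against 8876 of 19938 genes (44.5%). A limma F test over the 6 populations called 15 members (27.3%) at a Benjamini-Hochberg adjusted p under 0.05, beside a background of 12.2% of all genes called. The called ligands were 9 of 34, namely Ccl3, Ccl4, Ccl5, Ccl9, Ccl17, Ccl22, Ccl25, Cxcl2 and Cxcl16. The called receptors were 6 of 21, namely Ccr2, Ccr7, Ccr9, Cx3cr1, Cxcr2 and Cxcr4. Of the 9 called ligands, 4 had their highest mean in LMPP, 4 in ETP and 1 in HSC. For Ccl9 and Cxcl2 the LMPP arrays overlapped with those of HSC. Among the 6 called receptors, 3 peaked in CLP and 1 each in HSC, ETP and DN3. The single DN2 array held the highest mean of none of them. Leaving out 1 array at a time changed the number of members called to between 12 and 16.

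Ccr9, the Ccl25 receptor of thymus-settling progenitors and thymocytes, was low in HSC, higher from LMPP to ETP, lowest in DN2 and highest in DN3. Its log2 intensity was 5.41 and 5.12 in HSC, 6.85 and 6.86 in LMPP, 6.75 and 6.76 in CLP, 6.33 and 6.97 in ETP, 4.87 in DN2, and 7.40 and 7.84 in DN3. Both DN3 arrays lay above every other array, and the DN2 array lay below every other array. In LMPP, Ccr9 rose 3.01-fold over HSC (log2 difference 1.59 ± 0.207 SE, adjusted p = 0.00214). Across the marrow to thymus transition no change was called, with an ETP minus LMPP difference of -0.20 (95% interval -0.66 to 0.25, adjusted p = 0.753). The ETP minus CLP difference was -0.10 (interval -0.56 to 0.36, adjusted p = 0.94). Ccr9 then fell by 1.78 in DN2 relative to ETP (3.43-fold, adjusted p = 0.00734). DN3 exceeded DN2 by 2.75 ± 0.253 (6.71-fold, adjusted p = 0.000232), and exceeded ETP by 0.97 (1.96-fold, adjusted p = 0.0168). The DN3 against ETP call was lost without ETP replicate 1 (adjusted p = 0.144) or DN3 replicate 2 (0.189), while the other 3 calls held without any 1 HSC, LMPP, CLP, ETP or DN3 array. The DN2 level rests on 1 array, whose spread was taken from the other populations, and leaving it out leaves no DN2 comparison.

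Cxcr4, the Cxcl12 receptor of marrow retention, was bright on every array and lowest in HSC. It read 10.15 and 10.14 in HSC, 10.93 and 11.28 in LMPP, 11.17 and 11.50 in CLP, 10.85 and 10.99 in ETP, 11.23 in DN2, and 11.27 and 11.22 in DN3. The HSC arrays lay below the other 9. Among those, the ETP arrays overlapped with LMPP and lay below CLP, DN2 and DN3. LMPP exceeded HSC by 0.96 ± 0.15 (1.95-fold, adjusted p = 0.00619), and the call was lost without LMPP replicate 2 (0.0551). None of the other 6 comparisons called Cxcr4; the ETP minus CLP difference was -0.41 (interval -0.75 to -0.08, adjusted p = 0.285) and the DN3 minus DN2 difference 0.01 (interval -0.40 to 0.42). Its ligand Cxcl12, a stromal product, ranged between 4.98 and 5.21 over the 11 arrays and was not called (F test adjusted p = 0.836).

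Ccr7, which guides progenitors and T cells toward Ccl19 and Ccl21, was highest in CLP. Its values were 6.73 and 7.04 in HSC, 7.40 and 7.17 in LMPP, 7.87 and 7.63 in CLP, 7.39 and 7.40 in ETP, 7.04 in DN2, and 7.06 and 6.99 in DN3. Both CLP arrays lay above all others, and HSC, DN2 and DN3 formed the low end with overlapping values. The F test called it (adjusted p = 0.0169), whereas none of the 7 comparisons did. CLP minus LMPP was 0.46 (interval 0.15 to 0.78, adjusted p = 0.264), and DN3 minus ETP was -0.37 (interval -0.68 to -0.05, adjusted p = 0.212). Without CLP replicate 1 the F test gave 0.0804, without DN3 replicate 1 it gave 0.0511 and without DN3 replicate 2 it gave 0.0574.

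**Figure D1:**
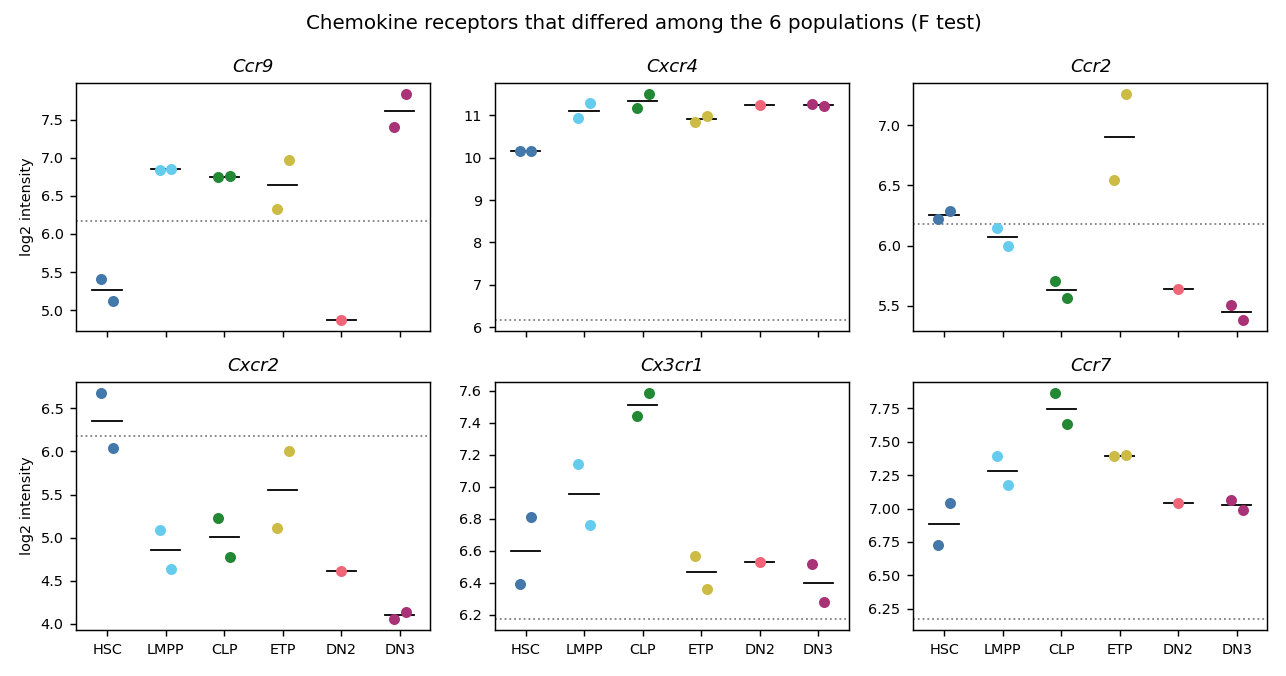
Log2 intensity (vertical axes) of the 6 chemokine receptors called by the F test, by population from HSC to DN3 (horizontal axes). Points are single arrays, short horizontal lines the population means, and the dotted line the median of all genes and arrays, 6.18; Ccr9 dips to 4.87 in DN2 between means of 6.65 in ETP and 7.62 in DN3.

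Ccr2, the receptor for Ccl2 known from monocytes, peaked in ETP. It read 6.22 and 6.29 in HSC, 6.15 and 5.99 in LMPP, 5.70 and 5.57 in CLP, 6.55 and 7.26 in ETP, 5.64 in DN2, and 5.51 and 5.38 in DN3. Both ETP arrays lay above all others. ETP exceeded CLP by 1.27 ± 0.194 (2.41-fold, adjusted p = 0.00561), while the 0.83 over LMPP missed the threshold (adjusted p = 0.0567). In DN2 the level fell by 1.26 relative to ETP (2.4-fold, adjusted p = 0.0365), a call lost without any single HSC, LMPP, CLP or DN3 array or ETP replicate 2 (0.0562 to 0.076). DN3 was lower than ETP by 2.74-fold (adjusted p = 0.000851), and that call held without any 1 array.

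Cxcr2, the neutrophil receptor for Cxcl1 and Cxcl2, was highest in HSC and lowest in DN3. Its values were 6.68 and 6.04 in HSC, 5.09 and 4.63 in LMPP, 5.23 and 4.78 in CLP, 5.11 and 6.00 in ETP, 4.62 in DN2, and 4.06 and 4.14 in DN3. The HSC arrays lay above all others, though the higher ETP array came close to the lower HSC array, and the 2 ETP arrays were 0.89 apart. In LMPP, Cxcr2 fell by 1.50 relative to HSC (2.83-fold, adjusted p = 0.0225). That call was lost without LMPP replicate 1 (0.0526), LMPP replicate 2 (0.152) or the first HSC array (0.158). DN3 was lower than ETP by 2.75-fold (adjusted p = 0.0129), which was lost without ETP replicate 2 (0.109), DN3 replicate 1 (0.0959) or DN3 replicate 2 (0.0829).

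Some markers of other cells were also high in ETP and HSC. The neutrophil list (5 of 5 markers measured) averaged 6.68 and 6.84 in ETP and 6.22 and 6.84 in HSC, against 5.30 to 5.96 on the other arrays. Within it, S100a8 read 8.05 and 8.50 in ETP, 6.29 and 6.94 in HSC, and 6.29 to 6.33 in DN2 and DN3. S100a9 read 8.16 and 8.61 in ETP, 7.88 in DN2 and 7.61 and 7.63 in DN3, and 6.31 and 7.34 in HSC. Ltf, of neutrophil granules, stayed between 4.40 and 4.79 and Camp between 5.67 and 6.39. Elane, a granule protease also made by early myeloid progenitors, read 8.32 and 8.89 in HSC and 6.43 and 6.53 in ETP, against 4.84 to 5.41 elsewhere. The mast and basophil list (5 of 5 measured) averaged 6.31 and 6.53 in ETP, 6.36 in DN2 and 6.81 and 6.86 in HSC, against 5.09 to 5.59 elsewhere. Within that list, Cpa3 read 9.76 and 10.22 in ETP, 11.06 in DN2, 9.94 and 10.28 in HSC and 8.83 and 8.95 in DN3. Its LMPP and CLP arrays lay between 4.82 and 5.58. The Mcpt8, Ms4a2 and Gata2 means were 7.06, 4.54 and 6.56 in ETP and 6.72, 4.19 and 6.18 in DN2. In LMPP they were 6.85, 4.29 and 6.66, and each was highest in HSC. Fcer1a stayed between 3.56 and 4.04. The erythroid list (2 of 5 measured) averaged 8.58 and 8.76 in HSC, against 5.08 to 6.40 elsewhere. The part of these cells in the Ccr2, Cxcr2 and Ccl5 results was not tested. The macrophage and monocyte list (4 of 5 measured) averaged 6.31 and 6.64 in ETP, 5.98 in DN2, and 5.71 and 5.76 in DN3, and 6.23 to 6.64 on the marrow arrays.

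Cx3cr1, the receptor for the membrane-bound chemokine Cx3cl1, was highest in CLP. It read 6.39 and 6.81 in HSC, 7.14 and 6.76 in LMPP, 7.44 and 7.59 in CLP, 6.57 and 6.36 in ETP, 6.53 in DN2, and 6.52 and 6.28 in DN3. The CLP arrays lay above all others, and the thymic arrays overlapped with those of HSC. In ETP it was lower than in CLP by 2.07-fold (log2 difference -1.05 ± 0.178, adjusted p = 0.0108), and the call was lost without CLP replicate 2 (0.0781) or ETP replicate 2 (0.113). Its F test call was lost without CLP replicate 2 (0.0707). The CLP arrays also carried the highest B lineage list (4 of 5 markers, 8.35 and 7.99, against 5.41 to 6.42 elsewhere) and the highest natural killer and innate lymphoid list (5 of 5 markers, 6.22 and 5.95, against 4.42 to 5.93 elsewhere). Of the latter, Klrd1 read 8.70 and 8.17 and Fcer1g 8.60 and 8.44 in CLP, above all other arrays. Gzmb, in contrast, read 5.63 and 5.25 in CLP, below ETP (5.83 and 6.73) and DN2 (6.34). Ncr1 stayed between 3.92 and 4.40 and Klrb1c between 3.32 and 3.92. The dendritic list (5 of 5 markers) averaged 6.60 and 7.03 in CLP, against 6.01 to 7.31 elsewhere. Of its genes, Siglech, of plasmacytoid dendritic cells, read 7.75 and 8.36 in CLP against 5.41 to 5.85 elsewhere. H2-Aa (5.55 and 6.16) and Cd74 (5.15 and 5.46) in CLP lay within the range of the other populations, and Itgax (5.63 and 6.05) overlapped with LMPP and ETP. The part of these cells in the Cx3cr1 result was not tested.

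The 15 receptors not called by the F test had population means that spanned 0.15 to 0.99, with a median span of 0.354. The widest was Cxcr6, the Cxcl16 receptor, with 6.00 and 6.77 in HSC, 6.28 and 5.89 in LMPP, 6.78 and 6.90 in CLP, 6.08 and 6.24 in ETP, 5.85 in DN2, and 6.13 and 6.15 in DN3. Both CLP arrays were the highest, HSC replicate 2 came close to them, and the F test adjusted p was 0.141. Ccr10, known for homing to skin and mucosa, read 6.29 and 6.13 in HSC, 6.42 and 6.29 in LMPP, 6.41 and 6.34 in CLP, 6.29 and 6.19 in ETP, 6.24 in DN2, and 6.32 and 6.29 in DN3. Cxcr3, the receptor of Cxcl9, Cxcl10 and Cxcl11, read 5.51 and 6.38 in HSC, 5.79 and 5.96 in LMPP, 5.79 and 5.84 in CLP, 5.66 and 5.68 in ETP, 5.72 in DN2, and 5.78 and 5.59 in DN3. Its lowest and highest arrays were thus the 2 HSC replicates. Ackr2, which clears inflammatory CC chemokines, read 5.41 and 5.54 in HSC, 5.79 and 5.94 in LMPP, 5.72 and 5.75 in CLP, 5.49 and 5.61 in ETP, 5.61 in DN2, and 5.55 and 5.34 in DN3. Cxcr1, a receptor of neutrophils, read 5.74 and 5.83 in HSC, 5.51 and 5.40 in LMPP, 5.49 and 5.34 in CLP, 5.37 and 5.31 in ETP, 5.27 in DN2, and 5.46 and 5.20 in DN3. Ackr2 was highest on the LMPP arrays and Cxcr1 on the HSC arrays, without overlap with other populations, but neither was called (F test adjusted p = 0.194 and 0.144). Of the other atypical receptors, Ackr1 lay between 4.34 and 5.04, Ackr3, which takes up Cxcl12, between 4.73 and 5.39, and Ackr4, which takes up Ccl19 and Ccl21, between 5.15 and 5.97. Ccr1, Ccr3, Ccr4, Ccr6, Ccr8, Cxcr5 and Xcr1 also passed in no test, and all 7 had arrays between 3.25 and 5.41.

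Among the ligands, Ccl3 had the widest span of population means, 4.29. Ccl3 (MIP-1 alpha) attracts myeloid cells and restrains the proliferation of stem and progenitor cells in culture. Its log2 intensity was 5.41 and 6.43 in HSC, 9.35 and 9.49 in LMPP, 8.92 and 7.45 in CLP, 6.49 and 6.14 in ETP, 5.37 in DN2, and 5.27 and 4.99 in DN3. Every LMPP array lay above every CLP array, and both CLP arrays lay above the rest, although they were 1.47 apart. Ccl3 rose 11.3-fold in LMPP over HSC (3.50 ± 0.419, adjusted p = 0.00126) and was 8.61-fold lower in ETP than in LMPP (-3.11, adjusted p = 0.00305). Both calls held without any 1 array. ETP was also lower than CLP by 3.66-fold (adjusted p = 0.0456), which was lost without LMPP replicate 1 or 2, CLP replicate 1, or any ETP or DN3 array (0.0724 to 0.302). CLP minus LMPP was -1.23 (interval -2.16 to -0.30, adjusted p = 0.349).

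Ccl4 (MIP-1 beta), encoded next to Ccl3, was likewise highest in LMPP and next highest in CLP, over a narrower span. It read 7.18 and 7.51 in HSC, 8.60 and 8.26 in LMPP, 7.94 and 7.92 in CLP, 7.06 and 7.20 in ETP, 7.12 in DN2, and 6.83 and 6.68 in DN3. The LMPP arrays were the highest and the CLP arrays came next, with no overlap. LMPP exceeded HSC by 1.08 ± 0.153 (2.11-fold, adjusted p = 0.00371), and ETP was lower than LMPP by 2.45-fold (adjusted p = 0.00128). ETP was lower than CLP by 1.74-fold (adjusted p = 0.0216), lost without CLP replicate 1 (0.115), CLP replicate 2 (0.0927), ETP replicate 1 (0.153) or ETP replicate 2 (0.0934).

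Ccl9 (MIP-1 gamma), which binds Ccr1 and attracts myeloid cells, was high in HSC and LMPP. Its values were 7.25 and 8.09 in HSC, 8.23 and 7.86 in LMPP, 6.87 and 6.55 in CLP, 6.18 and 6.61 in ETP, 5.88 in DN2, and 5.47 and 5.35 in DN3. HSC and LMPP overlapped and lay above all others, and DN3 lay below all others. LMPP minus HSC was 0.38 (interval -0.19 to 0.94, adjusted p = 0.586). Ccl9 fell by 1.34 in CLP relative to LMPP (2.52-fold, adjusted p = 0.0374), a call lost without any single LMPP, CLP, ETP or DN3 array (0.0524 to 0.229). In ETP it was lower than in LMPP by 3.14-fold (adjusted p = 0.00691), lost without LMPP replicate 1 (0.065) or ETP replicate 1 (0.0718). DN3 was lower than ETP by 1.97-fold (adjusted p = 0.0485), again lost without any single LMPP, CLP, ETP or DN3 array (0.0572 to 0.289).

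Cxcl2, a neutrophil attractant that acts on Cxcr2, had the same high pair of populations. It read 5.58 and 5.99 in HSC, 5.98 and 5.81 in LMPP, 5.27 and 4.95 in CLP, 4.66 and 4.80 in ETP, 4.74 in DN2, and 4.92 and 4.86 in DN3. HSC and LMPP overlapped above every other array, all at signal under the median of 6.18. Cxcl2 fell by 0.79 in CLP relative to LMPP (1.72-fold, adjusted p = 0.0475), lost without any single LMPP, CLP, ETP or DN3 array (0.0729 to 0.255). ETP was lower than LMPP by 2.24-fold (adjusted p = 0.00346), and that call held without any 1 array.

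Ccl5 (RANTES), an attractant of T cells and monocytes, was highest in HSC. Its values were 8.82 and 8.86 in HSC, 7.65 and 7.62 in LMPP, 7.64 and 6.98 in CLP, 7.80 and 7.73 in ETP, 7.88 in DN2, and 7.24 and 6.93 in DN3. The HSC arrays lay above all others, and the CLP replicates were the farthest apart. In LMPP it fell by 1.20 relative to HSC (2.3-fold, adjusted p = 0.00662), lost without LMPP replicate 2 (0.051). DN3 minus ETP was -0.68 (interval -1.10 to -0.26, adjusted p = 0.0643). Platelets store Ccl5, and the megakaryocyte and platelet list (4 of 5 markers) averaged 7.66 and 7.51 in HSC against 5.22 to 5.67 elsewhere; its part in the Ccl5 result was not tested.

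**Figure D2:**
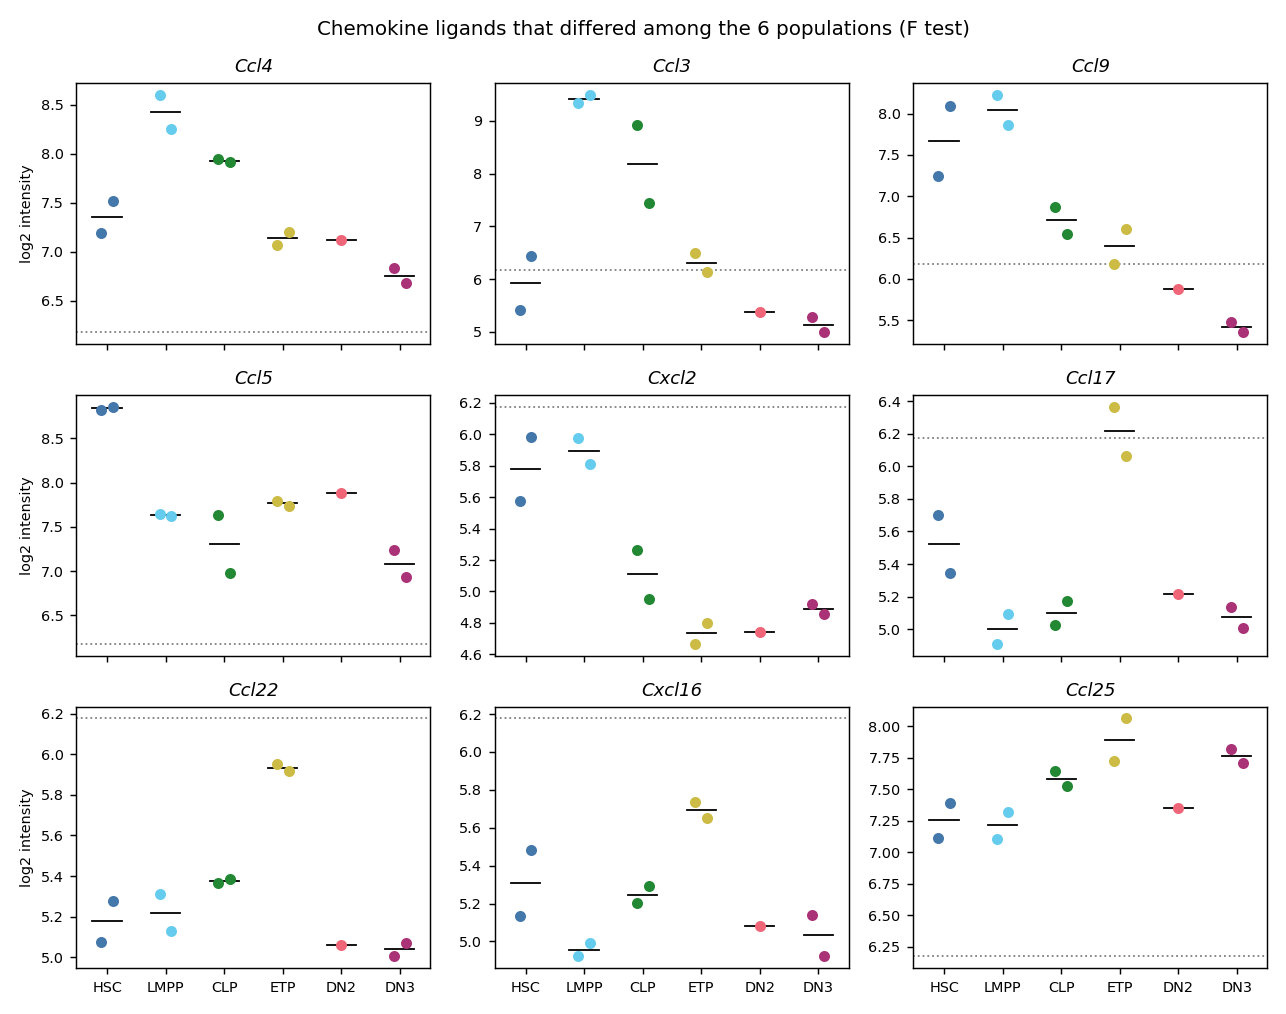
Log2 intensity (vertical axes) of the 9 chemokine ligands called by the F test, by population from HSC to DN3 (horizontal axes), with points for arrays, short horizontal lines for population means and a dotted line at 6.18, the median of all genes and arrays. Ccl3 and Ccl4 stand highest in LMPP, Ccl9 and Cxcl2 in HSC and LMPP, Ccl5 in HSC, and Ccl17, Ccl22 and Cxcl16 in ETP.

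Ccl17 and Ccl22, the ligands of Ccr4 that dendritic cells make, both stood out in ETP at low signal. Ccl17 read 5.70 and 5.35 in HSC, 4.91 and 5.09 in LMPP, 5.02 and 5.18 in CLP, 6.37 and 6.06 in ETP, 5.22 in DN2, and 5.14 and 5.01 in DN3. Ccl22 read 5.08 and 5.28 in HSC, 5.31 and 5.13 in LMPP, 5.37 and 5.39 in CLP, 5.95 and 5.92 in ETP, 5.06 in DN2, and 5.01 and 5.07 in DN3. For both genes the ETP arrays lay above all others. In ETP, Ccl17 exceeded its LMPP level by 2.32-fold (adjusted p = 0.00226) and its CLP level by 2.17-fold (adjusted p = 0.00302), and both calls held without any 1 array. It was 2.0-fold lower in DN2 than in ETP (adjusted p = 0.0398), lost without any single LMPP, CLP, ETP or DN3 array (0.0563 to 0.211), and 2.21-fold lower in DN3 than in ETP (adjusted p = 0.00102). Their receptor Ccr4 lay between 4.73 and 5.41 on the 11 arrays and was not called (F test adjusted p = 0.716).

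In ETP, Ccl22 exceeded its LMPP level by 1.64-fold (adjusted p = 0.0104) and its CLP level by 1.47-fold (adjusted p = 0.0371). The LMPP comparison was lost without LMPP replicate 2 (0.0863), ETP replicate 1 (0.0754) or ETP replicate 2 (0.0687), and the CLP comparison without any single CLP, ETP or DN3 array (0.0755 to 0.181). Ccl22 was 1.83-fold lower in DN2 than in ETP (adjusted p = 0.0189), lost without ETP replicate 1 (0.0944) or 2 (0.0887). It was 1.86-fold lower in DN3 than in ETP (adjusted p = 0.000859), which held without any 1 array.

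Cxcl16, a membrane-bound and shed ligand of Cxcr6, also peaked in ETP. It read 5.13 and 5.48 in HSC, 4.92 and 4.99 in LMPP, 5.20 and 5.29 in CLP, 5.73 and 5.65 in ETP, 5.08 in DN2, and 5.14 and 4.92 in DN3. The ETP arrays lay above all others, with HSC replicate 2 the nearest. ETP exceeded LMPP by 1.67-fold (adjusted p = 0.0213), lost without LMPP replicate 1 (0.122), LMPP replicate 2 (0.0871), ETP replicate 1 (0.127) or ETP replicate 2 (0.105). DN3 was lower than ETP by 1.58-fold (adjusted p = 0.0158), lost without ETP replicate 1 (0.119), ETP replicate 2 (0.0703) or DN3 replicate 2 (0.178). Its F test call (adjusted p = 0.0369) was lost without any single LMPP, CLP, ETP or DN3 array (0.056 to 0.188).

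A pair of the 5 dendritic cell markers was highest on the same ETP arrays. H2-Aa, an MHC class II chain of antigen-presenting cells, read 9.14 and 9.59 in ETP against 5.01 to 6.25 elsewhere, and Cd74, the class II chaperone, 6.63 and 6.72 against 4.98 to 5.55. The whole dendritic list (5 of 5 measured) averaged 7.16 and 7.31 in ETP against 6.01 to 7.03 elsewhere. Of its other markers, Itgax read 5.99 and 5.95 in ETP against 5.21 to 6.05 elsewhere, Siglech 5.55 and 5.53 against 5.41 to 8.36, and Bst2 8.51 and 8.77 against 8.23 to 9.14. Whether dendritic cells among the sorted ETP contributed to the Ccl17, Ccl22 and Cxcl16 signal was not tested.

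Ccl25, the Ccr9 ligand made by thymic epithelium, was called through a probe set with 7.11 and 7.39 in HSC, 7.11 and 7.32 in LMPP, 7.65 and 7.52 in CLP, 7.73 and 8.06 in ETP, 7.35 in DN2, and 7.82 and 7.71 in DN3. On that probe set HSC, LMPP and DN2 were low and the other 3 populations high. ETP exceeded LMPP by 1.6-fold (adjusted p = 0.0479). A different probe set of the gene, with means of 6.98 in ETP and 6.76 in LMPP, had a smaller difference of the same sign and its highest mean, 7.35, in DN3. It did not share the grouping, since its means in HSC (7.27) and DN2 (7.14) were above that in ETP. The limma call of ETP over LMPP was lost when the probe sets were averaged (adjusted p = 0.318) and in a fit of ETP and LMPP alone (0.162). Its F test call was lost without 8 of the 11 arrays in turn (0.0613 to 0.126), and the ETP against LMPP call without any single LMPP, CLP, ETP or DN3 array (0.0533 to 0.323). The thymic epithelial list (5 of 5 markers) averaged 5.70 and 5.69 in ETP, 5.65 in DN2 and 6.15 and 5.97 in DN3, against 5.63 to 5.93 in the marrow. Of its genes, Epcam, a surface protein of epithelium, read 7.20 and 7.23 in DN3 against 4.99 to 5.36 elsewhere. The other list genes did not rise in DN3. Krt8 read 6.86 and 6.36 there against 6.64 to 7.22 elsewhere, and Psmb11 5.40 and 5.11 against 5.16 to 5.79. Krt5 stayed between 5.11 and 5.30. Foxn1, which defines thymic epithelium, stayed between 5.79 and 6.10, and the part of such cells in the Ccl25 signal was not tested.

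The 25 ligands not called by the F test had population means that spanned 0.115 to 0.662, with a median span of 0.252. The widest was Cxcl10, an interferon-induced attractant of T cells, with arrays between 4.85 and 5.69 and its highest mean in HSC (F test adjusted p = 0.0672). Of those with the highest signal, Cxcl17, a mucosal chemokine, read 6.83 and 6.94 in HSC, 7.15 and 6.90 in LMPP, 7.06 and 7.03 in CLP, 6.92 and 6.82 in ETP, 6.62 in DN2, and 6.92 and 6.91 in DN3. Ccl19, the Ccr7 ligand of lymphoid stroma, read 6.58 and 6.65 in HSC, 6.46 and 6.60 in LMPP, 6.40 and 6.40 in CLP, 6.45 and 6.46 in ETP, 6.19 in DN2, and 6.36 and 6.18 in DN3. The remaining 4 probe sets of Ccl19 also had their highest mean in HSC and their lowest in DN2, which has 1 array. A pair of them had the same values on every array, so the 4 are not separate measurements. Cxcl1, a Cxcr2 ligand, read 6.09 and 6.49 in HSC, 6.21 and 6.17 in LMPP, 6.16 and 6.07 in CLP, 6.16 and 5.97 in ETP, 6.16 in DN2, and 6.17 and 6.00 in DN3. Cx3cl1, the Cx3cr1 ligand, read 5.96 and 6.22 in HSC, 6.41 and 6.00 in LMPP, 6.01 and 6.06 in CLP, 6.04 and 6.08 in ETP, 5.87 in DN2, and 6.11 and 5.93 in DN3. Both were close to level over the populations. Ccl6, a myeloid CC chemokine of rodents, read 6.07 and 6.25 in HSC, 6.02 and 6.24 in LMPP, 6.19 and 6.22 in CLP, 6.10 and 6.04 in ETP, 5.97 in DN2, and 6.17 and 5.74 in DN3. In none of these 5 did a population stand apart from the others on both of its arrays. The rest, among them Ccl2, Ccl20, Cxcl9, Cxcl13 and Xcl1, had arrays between 3.25 and 6.18.

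**Figure D3:**
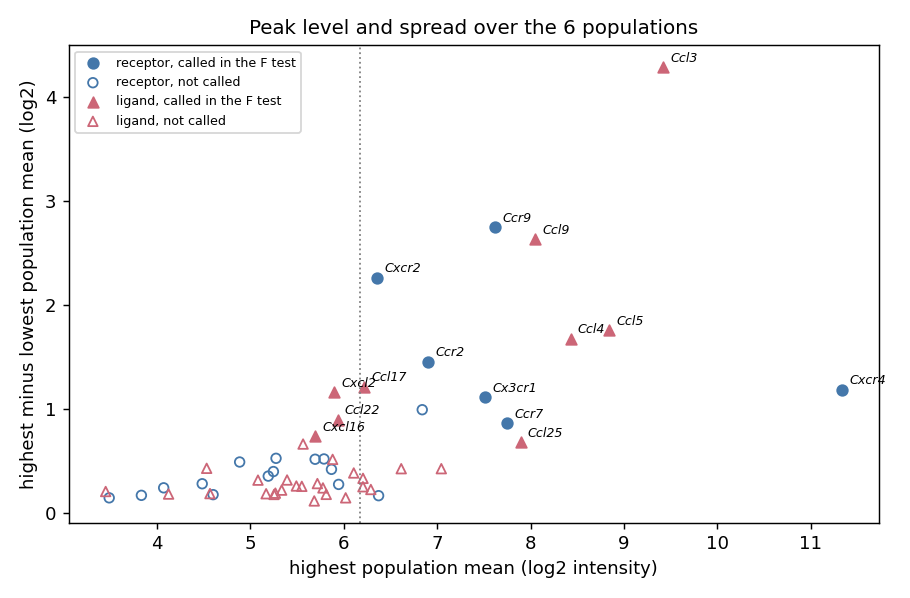
Highest population mean (log2 intensity, horizontal axis) against the span of the population means (log2 units, vertical axis) for the 34 ligands and 21 receptors, with called members marked and named and a dotted line at 6.18. The 40 members not called lie below a span of 1, and Ccl3 has the largest span, 4.29; intensities of different probe sets are not ranked as transcript levels.

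Chemokine genes lie in clusters, and neighbours in the RefSeq gene order (GRCm38.p6) did not all behave alike. On chromosome 11, Ccl5, Ccl9, Ccl6, Ccl3 and Ccl4 are adjacent in that order. The F test called 4 of these 5, beside 12.2% of all genes. The highest mean was in LMPP for Ccl3, Ccl4 and Ccl9 and in HSC for Ccl5, while Ccl6 spanned only 0.252. The other chromosome 11 group, Ccl2, Ccl7, Ccl11, Ccl12, Ccl8 and Ccl1, attractants of monocytes and eosinophils, had 0 of 6 called (limma F test, lowest adjusted p = 0.315 for Ccl12). For so few genes, 0 of 6 cannot be told from the 12.2% of all genes. On chromosome 8, Cx3cl1 lies between Ccl22 and Ccl17 and was not called (adjusted p = 0.854), although both of these neighbours peaked in ETP. On chromosome 5, Cxcl2 was called while its neighbours Cxcl1, Cxcl15 and Cxcl3 were not. On chromosome 9, Ccr9 and Ccr2 stand at the 2 ends of a receptor group whose members between them, Cxcr6, Xcr1, Ccr1 and Ccr3, were not called.

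Set out by comparison, LMPP against HSC had 6 members called, against a background of 2.94% of all genes (limma, adjusted p under 0.05). Ccl3, Ccl4, Ccr9 and Cxcr4 were higher in LMPP (background 1.23%), and Ccl5 and Cxcr2 lower (1.71%). The median log2 difference was -0.013 over ligands and 0.11 over receptors, beside 0.034 over all genes. A fit of these 2 groups alone called 3, without Ccl4 (adjusted p = 0.0799), Cxcr2 (0.0807) and Cxcr4 (0.0746), and leaving out LMPP replicate 2 also left 3.

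CLP against LMPP had 2 ligands called, Ccl9 and Cxcl2, both lower in CLP, where 1.14% of all genes were called, 0.542% lower and 0.602% higher. No receptor was called by limma, and 4 of 21 had an unadjusted p under 0.05, as did 1694 of all 19938 genes. Medians were -0.014 for ligands, -0.011 for receptors and -0.018 for all genes. No member was called in a fit of the 2 groups alone, in the fit with the replicate number as a block, or without LMPP replicate 1 or 2, CLP replicate 2, or any ETP or DN3 array, and neither of the 2 was called without CLP replicate 1, where Ccl3 was.

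ETP against LMPP, the comparison across the move to the thymus, had 8 ligands and 0 receptors called, where 2.31% of all genes were called. Ccl17, Ccl22, Ccl25 and Cxcl16 were higher in ETP (background 1.44%), and Ccl3, Ccl4, Ccl9 and Cxcl2 lower (0.868%). Among the receptors, 5 of 21 had an unadjusted limma p under 0.05, as did 2675 of all 19938 genes. Medians were -0.063 for ligands, -0.012 for receptors and -0.029 for all genes. The count was 5 in a fit of the 2 groups alone, which lost Ccl22 (0.0777), Ccl25 (0.162) and Cxcl16 (0.0568), and 5 without either LMPP array or either ETP array.

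ETP against CLP had 6 members called, where 2.52% of all genes were. Ccl17, Ccl22 and Ccr2 were higher in ETP (background 1.41%), and Ccl3, Ccl4 and Cx3cr1 lower (1.1%). Medians were -0.066 for ligands, -0.10 for receptors and -0.0082 for all genes. This comparison shares the ETP arrays with that against LMPP, so the 2 are not independent. The count was 3 in a fit of the 2 groups alone, which lost Ccl3 (0.19), Ccl22 (0.105) and Ccr2 (0.101), 3 without CLP replicate 2 or ETP replicate 1, and 2 without ETP replicate 2.

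DN2 against ETP had 4 members called, Ccl17, Ccl22, Ccr2 and Ccr9, all lower in DN2, where 0.998% of all genes were called, 0.677% lower and 0.321% higher. Medians were -0.054 for ligands, 0 for receptors and -0.0023 for all genes. Leaving out ETP replicate 2 left 1 call, and leaving out the other ETP array or any single LMPP, CLP or DN3 array left 2. DN3 against DN2 had 1 member called, Ccr9, higher in DN3, where 1.8% of all genes were called, 0.702% higher and 1.09% lower. No ligand was called there by limma, and 2 of 34 had an unadjusted p under 0.05, as did 1629 of all 19938 genes. Medians were -0.038 for ligands, -0.018 for receptors and 0 for all genes. Without CLP replicate 1 or 2 the count became 2, through Ccl5.

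DN3 against ETP had 7 members called, where 6.57% of all genes were. Ccr9 was higher in DN3 (background 2.68%), and Ccl9, Ccl17, Ccl22, Cxcl16, Ccr2 and Cxcr2 were lower (3.89%). Medians were -0.084 for ligands, -0.065 for receptors and -0.0029 for all genes. The count was 3 without DN3 replicate 2 and 4 without either ETP array, and a fit of the 2 groups alone lost Ccr9 (0.0897). These comparisons share ETP or DN2 arrays with each other. Over the 7 comparisons, 14 members gave 34 calls, and 40 of the 55 members were called in no test.

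**Figure D4:**
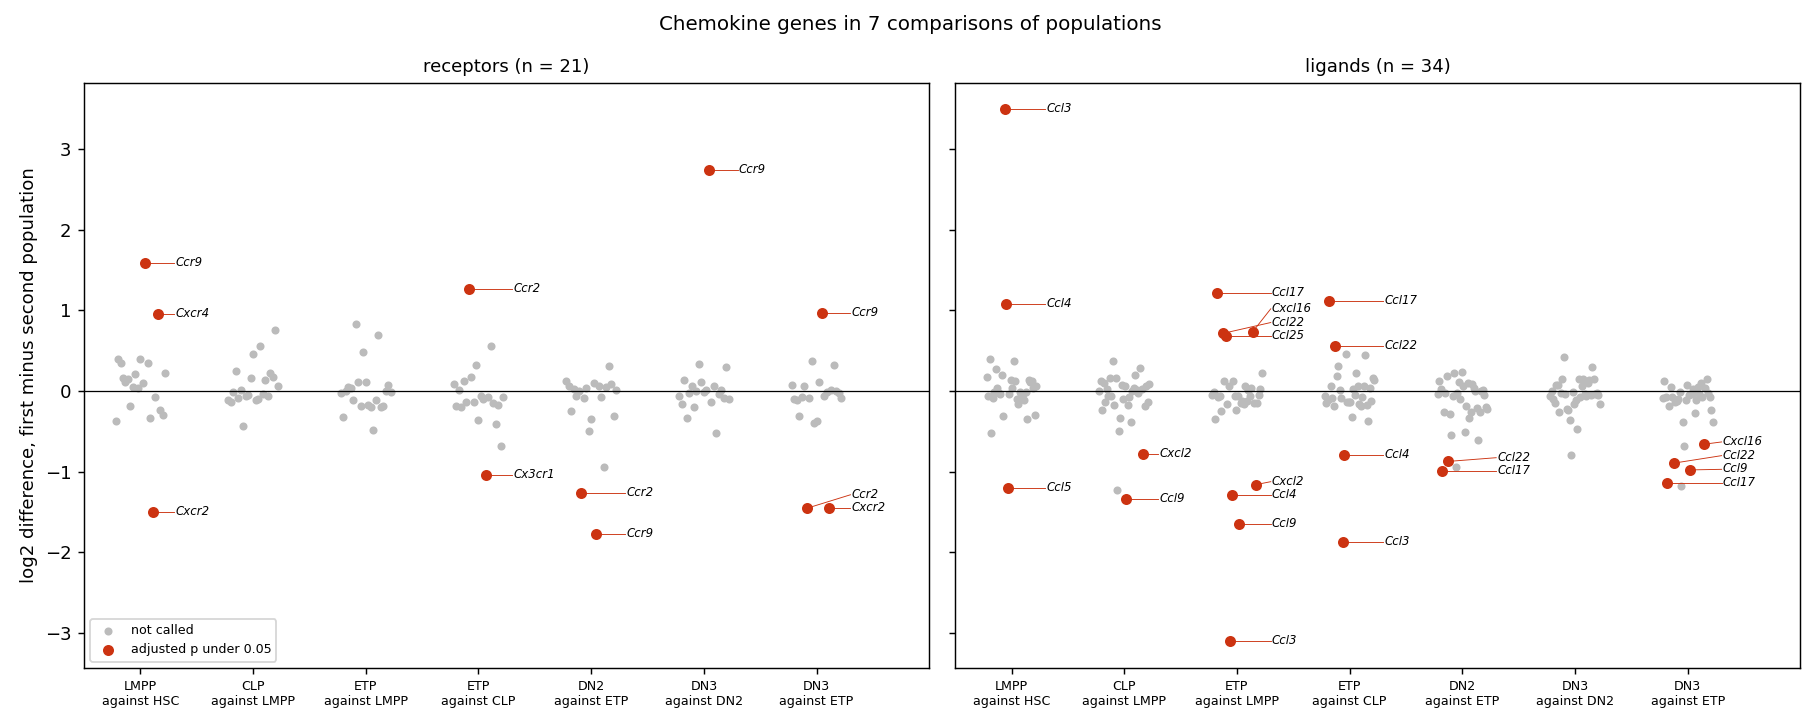
Log2 difference (vertical axis; later population minus earlier) of each member in the 7 comparisons (horizontal axis), receptors in the left panel and ligands in the right, with called members in red and named and the others in grey. Most members lie near 0 in every comparison; Ccl3 reaches 3.50 in LMPP against HSC and -3.11 in ETP against LMPP, and Ccr9 2.75 in DN3 against DN2.

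Genes that act behind chemokine receptors were read from a list of 46 G protein, kinase, arrestin, Rgs and migration genes, of which 44 were measured. The F test called 13 of them (29.5%, beside 12.2% of all genes). The list was chosen with earlier results of these data known, so its called shares are no test of such genes as a class. DN3 against ETP had 8 of the 44 lower and 1 higher (20.5% called), where 3.89% of all genes were lower and 2.68% higher. Rgs1, an Rgs protein that shortens G protein signals in lymphocytes, read 5.57 and 5.56 in DN3 against 9.98 and 10.44 in ETP (25-fold lower, adjusted p = 4.92e-07). Rgs18, known from platelets and other blood cells, read 6.49 and 6.70 in DN3 against 10.64 and 10.92 in ETP (18.3-fold lower, adjusted p = 5.73e-08). For both genes every DN3 array lay below every array of the other populations. Rgs2 was 3.06-fold lower (adjusted p = 1.08e-05) and Arrb2, an arrestin that uncouples receptors, 2.64-fold lower (adjusted p = 0.0025). The single gene higher in DN3 was Rhoh, a GTPase of blood cells (2.16-fold, adjusted p = 8.87e-05). These 5 calls held without any 1 array. DN3 was also lower than DN2 in Rgs18 (9.99-fold, adjusted p = 6.04e-06) and Rgs1 (6.71-fold, adjusted p = 0.000388). Both calls held without any 1 HSC, LMPP, CLP, ETP or DN3 array, but the DN2 level rests on 1 array that could not be left out. Relative to ETP, Rgs1 was 3.73-fold lower in DN2 (adjusted p = 0.00755), lost without ETP replicate 2 (0.0635).

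LMPP against HSC had 2 of the 44 lower and 1 higher (6.82%, beside 2.94% of all genes). Gng11, a G protein gamma subunit, was 5.39-fold lower in LMPP than in HSC (adjusted p = 0.000172), which held without any 1 array. Rap1b, also lower in LMPP, and Pik3cg, higher in LMPP, lost their calls without any single LMPP, ETP or DN3 array. In CLP, Gng11 was lower than in LMPP by 2.55-fold (adjusted p = 0.0133), lost without LMPP replicate 1 (0.0868), LMPP replicate 2 (0.0979) or CLP replicate 2 (0.104). ETP against LMPP had 1 gene called (2.27%, beside 2.31% of all genes), again Gng11, lower by 2.53-fold (adjusted p = 0.00862) and lost without either LMPP or either ETP array (0.0539 to 0.0718). ETP had 4 genes higher than CLP and 0 lower (9.09%, beside 2.52% of all genes). Of these, Rgs18 (1.99-fold, adjusted p = 0.00247) held without any 1 array. Rgs1 (2.21-fold) was lost without CLP replicate 2 (0.123) or ETP replicate 2 (0.216), and Arrb2 (2.22-fold) without either CLP or either ETP array (0.0766 to 0.161). Grk3, a receptor kinase (1.71-fold), was lost without any single LMPP, CLP, ETP or DN3 array (0.0613 to 0.263).

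A list of 24 further chemoattractant genes under other names, 22 of them measured, had 12 called by the F test (54.5%, beside 12.2% of all genes). This list too was chosen with earlier results of these data known, so its called shares do not describe chemoattractant genes in general. Dpp4, a surface peptidase that trims and inactivates several chemokines, read 8.55 and 8.61 in HSC, 8.65 and 8.64 in LMPP, 9.75 and 9.77 in CLP, 10.20 and 10.26 in ETP, 11.20 in DN2, and 10.43 and 10.64 in DN3. No 2 of the populations from LMPP onward overlapped. Dpp4 rose 2.17-fold in CLP over LMPP (adjusted p = 0.000833), 3.0-fold in ETP over LMPP (adjusted p = 4.04e-05) and 1.96-fold in DN2 over ETP (adjusted p = 0.00734). These 3 calls held without any 1 HSC, LMPP, CLP, ETP or DN3 array, but the DN2 level rests on 1 array. In DN3 it was 1.58-fold lower than in DN2 (adjusted p = 0.0407), lost without any single LMPP, CLP, ETP or DN3 array (0.0607 to 0.256). LMPP against HSC had 1 of the 22 higher and 3 lower, where 1.23% of all genes were higher and 1.71% lower. The platelet chemokines Pf4 (43.2-fold, adjusted p = 2.21e-07) and Ppbp (1.74-fold, adjusted p = 0.00567) were lower in LMPP than in HSC, and so was S1pr1, the sphingosine 1-phosphate receptor of egress (2.46-fold, adjusted p = 0.000233). DN3 against ETP had 2 of the 22 higher and 5 lower, where 2.68% of all genes were higher and 3.89% lower. P2ry14, a receptor for UDP-sugars, was 3.87-fold lower in DN3 than in ETP (adjusted p = 5.18e-06), and S1pr3, a further sphingosine 1-phosphate receptor, 2.93-fold lower (adjusted p = 0.000442). The 5 calls given with fold sizes for these last 2 comparisons held without any 1 array, and Ppbp lost its call in a fit of LMPP and HSC alone (0.0989). Other calls were less stable. The gene higher in LMPP than in HSC was P2ry14, a call lost without any single HSC, LMPP or DN3 array. Between DN3 and ETP, Ccrl2, lower in DN3, and Tpst1, higher in DN3, lost their calls without ETP replicate 2 or either DN3 array.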

How the data were processed

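Total RNA of sorted cells was hybridised to 11 Affymetrix arrays. The deposited values are log2 intensities made by the authors with RMA, per the submitters' processing notes. Its version and the array's annotation build are not stated in the sources used here. Groups followed the sample titles. Of 35556 probe sets, 21789 had 1 symbol in the annotation given, 1621 several and 12146 none. Probe sets with 1 symbol entered, of which 21698 matched the RefSeq gene table. Where a gene had more than 1 probe set (999 genes) the highest mean over the arrays was kept, which left 19938 genes with no filter on dim signal. A set of 7 probe sets with several symbols, at least 1 of them a chemokine, was not used.

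All genes were fitted with limma 3.58.1 in R 4.3.3 as 6 group means over 11 arrays (5 residual and 5.39 prior degrees of freedom). DN2, with 1 array, was assumed to vary like the others. The F test and 7 two-sided comparisons were adjusted by Benjamini-Hochberg over all genes, with calls at adjusted p under 0.05. Standard errors and 95% intervals come from this fit. The number of arrays limits the precision.

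Per-array values are given for members called in any test, and for the 5 receptors and 5 ligands with the highest population mean among the rest. From each context list, some called genes are named per comparison, mostly those of largest fold, and other calls are not named. Members and lists were chosen with earlier results of these data known. Marker lists were averaged as log2 values. Promoters were cut in Python 3.11.15 from RefSeq windows; pandas 2.3.3, numpy 2.4.6 and matplotlib 3.10.9 handled tables and figures. The fit was tested on simulated data. Alternatives were quantile normalization, median centring, leaving out dim genes, averaging probe sets per gene, an intensity trend with a robust prior, a replicate block, fits of 2 groups alone and leaving out each array.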

Additional observations from a re-analysis of the deposited data

How the results depend on the processing

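No direction reversed under any alternative. Of 846 combinations of a called gene result and a setting, 697 kept the call and 149 lost it. For the context genes, 1072 of 1311 kept it and 239 lost it. Of the 49 called gene results, 25 held without any 1 array, and 23 held under every setting tried. The number of members called ranged from 12 to 16 in the F test when 1 array was left out, from 3 to 7 in LMPP against HSC, from 0 to 3 in CLP against LMPP, and from 5 to 8 in ETP against LMPP. It ranged from 2 to 7 in ETP against CLP, from 1 to 3 in DN2 against ETP, from 1 to 2 in DN3 against DN2 and from 3 to 8 in DN3 against ETP. In fits of 2 groups alone, which hold fewer arrays, 3 were called in LMPP against HSC, 0 in CLP against LMPP, 5 in ETP against LMPP and 3 in ETP against CLP. In CLP against LMPP, 1 was called after quantile normalization, 1 after median centring and 1 with dim genes left out, and in DN2 against ETP 2 were called after median centring; the cause was not tested. When probe sets were averaged per gene, Ccl25 was no longer called. Quantile normalization also ended the calls of Ccl17 in DN2 against ETP (0.103) and Ccl9 in DN3 against ETP (0.119). Leaving out the DN2 array gives no value for its comparisons.

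The labels do not say whether arrays of the same replicate number belong together, and the main fit held no replicate block. Deviations of same-numbered arrays correlated below 0 between HSC and each of the other 4 replicated populations (lowest -0.258). The 6 pairs among LMPP, CLP, ETP and DN3 correlated between 0.0703 and 0.283. These values do not decide whether same-numbered arrays share a batch. With the replicate block the counts were 14 in the F test, 6 in LMPP against HSC, 0 in CLP against LMPP, 7 in ETP against LMPP, 4 in ETP against CLP, 2 in DN2 against ETP, 1 in DN3 against DN2 and 7 in DN3 against ETP. Member calls lost with it were Cxcl16 in the F test (adjusted p = 0.0578), Ccl9 (0.0522) and Cxcl2 (0.0728) in CLP against LMPP, Ccl25 (0.0504) in ETP against LMPP, Ccl3 (0.0585) and Ccl22 (0.0576) in ETP against CLP, Ccl17 (0.0547) and Ccr2 (0.0766) in DN2 against ETP, and Ccl9 (0.0633) in DN3 against ETP.

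Signal over background limits the weak probe sets, since 23 ligands and 13 receptors never reached, in any population mean, the median of all genes.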
